A study of Mus musculus with 18 samples.

Results

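This is an account of 34 genes of sterol and fatty acid synthesis in mouse mammary tumour cells: HMGCS1, MVK, PMVK, MVD, IDI1, FDPS and ACAT2 of the mevalonate steps, FDFT1, SQLE, LSS, CYP51, TM7SF2, NSDHL, HSD17B7, EBP and DHCR7 of the sterol steps, the regulators INSIG1, SREBF1, SREBF2 and SCAP, the sterol carrier STARD4, FASN, ACACA, ACLY, ELOVL6, SCD1, SCD2, FADS1, FADS2 and ACSL3 of fatty acid synthesis and modification, the phosphatidate phosphatase LPIN1, and ABCA1, ABCG1 and MYLIP, which the oxysterol receptors LXR switch on. They were taken by symbol from a list of the pathway, and 33 of the 34 were found among the 24360 gene symbols of each count table. *Hmgcs1* was not analysed here. All 33 passed the filter on low counts in both cell lines, so counts below are out of 33 unless another number is given.

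The data are RNA-seq counts of 18 libraries from the non-metastatic mammary tumour lines 168FARN and 67NR, with 3 replicates of each of 3 genotypes in each line. The WT group of 168FARN has columns named for a control sgRNA and that of 67NR is named WT. *Kmt2c* KO and *Kmt2d* KO cells received Cas9 and sgRNAs against exon 1 of the gene and were kept as pools of sorted cells, not clones, so a pool can hold unedited or in-frame alleles. Replicates are collections of the same pool made 1 passage apart, so p-values measure the spread between collections of one pool. All groups grew in DMEM with 10% serum, and no drug or lipid was given.

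Cells make cholesterol from acetyl-CoA through mevalonate, farnesyl diphosphate, squalene and lanosterol. When sterols in the endoplasmic reticulum run low, SCAP escorts the membrane-bound SREBP proteins, products of *Srebf1* and *Srebf2*, away from their anchor INSIG1 to the Golgi, where they are cut into factors that switch on most genes of the route, *Insig1* included. When sterols are plentiful, oxysterols activate LXR, which raises the exporters ABCA1 and ABCG1 and MYLIP, a ligase that sends lipoprotein receptors to degradation. KMT2C and KMT2D are histone methyltransferases that mark enhancers.

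Total counts ran from 14359760 to 43427382 in 168FARN and from 40951775 to 79251530 in 67NR. TMM scaling factors were 0.953 to 1.09, except 0.715 in *Kmt2d* KO replicate 3 of 67NR. Neither targeted mRNA was lower in its knockout by the call rule given below. In 168FARN *Kmt2c* was at 44.7 to 113 CPM (reads scaled to library size) in WT and 46.9 to 96.7 in the *Kmt2c* KO, and *Kmt2d* at 104 to 159.99 in WT and 136 to 296 in the *Kmt2d* KO, neither called (log2 differences −0.18 ± 0.49 and 0.71 ± 0.36). In 67NR *Kmt2d* was at 83.005 to 112 CPM in WT and 94.1 to 147 in the *Kmt2d* KO (0.22 ± 0.23, not called), but *Kmt2c* was at 54.6 to 63.1 in WT, 85.5 to 95.7 in the *Kmt2c* KO and 94.8 to 113 in the *Kmt2d* KO, higher in both by 0.63 ± 0.14 and 0.80 ± 0.14 (edgeR adjusted p = 0.0067 and 0.0031). Counts over a whole gene do not show edits in exon 1, so these levels do not check the knockouts, and the genotypes stand as labelled. The paper checked the pools by other means. It reports that most reads at the targeted sites were mutant, with the lowest share for *Kmt2c* in 67NR. It also reports less of the targeted protein on immunoblots of both lines. Of 6 epithelial markers, *Epcam* and *Krt5* had no read in 168FARN, where the sum was 97.7 to 124 CPM in replicates 1 and 2 and 286 to 389.99 in replicate 3, nearly all of it *Krt8*. Leukocyte markers summed to at most 0.308 CPM and endothelial markers to at most 0.487. The counts come from whole cultures, in which fewer cells of a type and less RNA per cell cannot be told apart.

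The promoters of the genes that the results turn on are shown first. Printed are the 250 bases before the RefSeq start (build GRCm38.p6, in the direction of the gene) of *Idi1*, *Acat2*, *Cyp51* and *Nsdhl*, whose mRNAs differed strongly in replicate 3, of *Mvk*, which holds the most CCAAT boxes of them, and of *Abca1*, one of the pair of genes with the strongest change in the knockouts. Capitals mark CCAAT, which reads ATTGG on the other strand, and the E-box CACGTG.

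Idi1, chr13:8885356-8885605, plus strand: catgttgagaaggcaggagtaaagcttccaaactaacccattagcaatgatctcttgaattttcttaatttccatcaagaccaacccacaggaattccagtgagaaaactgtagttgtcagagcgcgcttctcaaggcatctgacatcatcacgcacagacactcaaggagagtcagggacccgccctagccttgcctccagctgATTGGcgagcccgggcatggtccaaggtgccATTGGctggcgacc
Acat2, chr17:12960726-12960975, minus strand: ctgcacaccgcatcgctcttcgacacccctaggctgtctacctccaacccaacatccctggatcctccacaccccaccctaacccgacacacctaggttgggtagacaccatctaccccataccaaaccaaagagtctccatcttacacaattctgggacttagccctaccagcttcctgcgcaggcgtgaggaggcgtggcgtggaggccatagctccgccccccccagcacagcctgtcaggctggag
Cyp51, chr5:4104698-4104947, minus strand: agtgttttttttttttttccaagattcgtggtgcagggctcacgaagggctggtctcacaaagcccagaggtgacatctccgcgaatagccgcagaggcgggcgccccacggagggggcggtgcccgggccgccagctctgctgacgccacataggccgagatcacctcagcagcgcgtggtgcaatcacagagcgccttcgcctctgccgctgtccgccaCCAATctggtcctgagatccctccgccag
Nsdhl, chrX:72918271-72918520, plus strand: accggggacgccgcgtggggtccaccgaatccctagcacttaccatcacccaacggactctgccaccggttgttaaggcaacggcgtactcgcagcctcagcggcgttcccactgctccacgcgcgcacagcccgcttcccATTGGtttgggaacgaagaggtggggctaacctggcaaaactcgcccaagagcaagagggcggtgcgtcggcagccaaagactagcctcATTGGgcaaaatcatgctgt
Mvk, chr5:114444019-114444268, plus strand: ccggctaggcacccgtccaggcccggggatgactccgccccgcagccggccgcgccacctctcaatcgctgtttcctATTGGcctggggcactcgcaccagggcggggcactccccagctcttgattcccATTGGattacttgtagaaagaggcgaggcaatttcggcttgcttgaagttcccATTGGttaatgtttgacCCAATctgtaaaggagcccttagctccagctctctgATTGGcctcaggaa
Abca1, chr4:53159896-53160145, minus strand: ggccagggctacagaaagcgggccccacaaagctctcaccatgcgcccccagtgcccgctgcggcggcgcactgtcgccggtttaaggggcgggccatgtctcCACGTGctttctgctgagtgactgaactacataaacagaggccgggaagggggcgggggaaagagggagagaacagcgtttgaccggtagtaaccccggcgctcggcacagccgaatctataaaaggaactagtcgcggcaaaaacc

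In all, 25 of the 33 members had a promoter entry. CCAAT, the box of NF-Y, a factor known to work beside SREBP, was in the window of 17 of these 25 and of 11 of the 12 mevalonate and sterol genes among them, against 37.5% of 27025 genes searched the same way. *Acat2* was the one of the 12 without it. CACGTG was in 5 of the 25 (*Hsd17b7*, *Dhcr7*, *Insig1*, *Scap* and *Abca1*), against 6.86% of genes. The core TCACNCCAC of a sterol regulatory element was in 0 of the 25 windows, against 1.22% of genes. All motifs were searched on both strands, a CCAAT match cannot overlap a CACGTG match, CCAAT matches on opposite strands can overlap each other, and a match or its absence is a description of the window only.

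The members that differed were more numerous between collections than between genotypes. In 67NR the gap was small when both came from the fit with genotype and replicate number. That fit had 5 members higher and 10 lower in *Kmt2c* KO, beside 21.3% and 19.9% of all genes. In *Kmt2d* KO it had 4 and 12, beside 17.4% and 15.4%. In replicate 3 of 168FARN, 22 members were higher than in replicates 1 and 2 and 2 were lower, with a median log2 difference of 0.94 against −0.01 over all 12253 genes tested. In replicate 3 of 67NR, 18 were higher and 1 was lower, with a median of 0.69 against −0.02 over 13665 genes. Here and below a gene is called where edgeR's quasi-likelihood test over all genes gave an adjusted p below 0.1 and the log2 difference exceeded 0.6 in size. By that rule 22.5% of all genes were higher in replicate 3 of 168FARN and 25.7% lower, and in 67NR 15.1% and 13%, so much of the transcriptome differed. Of the members, 66.7% and 54.5% were higher. Between replicates 2 and 1 edgeR called 0 members and 0% of genes in each direction in both lines, where 443 genes of 168FARN, 58 of 67NR and 0 members had an unadjusted p below 0.05.

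*Idi1*, which isomerises isopentenyl diphosphate, had the largest difference. In 168FARN it was at 2.55, 3.25 and 27.7 CPM in WT replicates 1, 2 and 3. In the *Kmt2c* KO it was at 2.76, 2.77 and 31.4, and in the *Kmt2d* KO at 1.43, 1.98 and 32.5. Replicate 3 of each genotype lay above all other 168FARN libraries, with a log2 difference of 3.64 ± 0.16 (SE, edgeR adjusted p = 4.6e-09). In 67NR the levels were 18.1, 17.9 and 20.9 CPM in WT, 10.9, 10.8 and 13.99 in *Kmt2c* KO and 12.01, 7.49 and 18.4 in *Kmt2d* KO. The difference there, 0.51 ± 0.17, was under the fold threshold.

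*Acat2*, the cytosolic thiolase that makes acetoacetyl-CoA, was second in 168FARN and first in 67NR. Its 168FARN levels were 18.8, 17.8 and 132 CPM in WT, 22.2, 24.8 and 123 in *Kmt2c* KO and 15.6, 15.5 and 145 in *Kmt2d* KO. Its 67NR levels were 38.4, 39.2 and 215 CPM in WT, 31.5, 29.4 and 81.9 in *Kmt2c* KO and 18.04, 16.5 and 88.8 in *Kmt2d* KO. Replicate 3 was the highest within each of the 6 groups, and the log2 differences were 2.83 ± 0.13 and 2.11 ± 0.16 (edgeR adjusted p = 5.3e-09 and 9.1e-06). *Acat2* has a near relative, *Acat3*, and how shared reads were counted is not given in the sources used here.

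**Figure D1:**
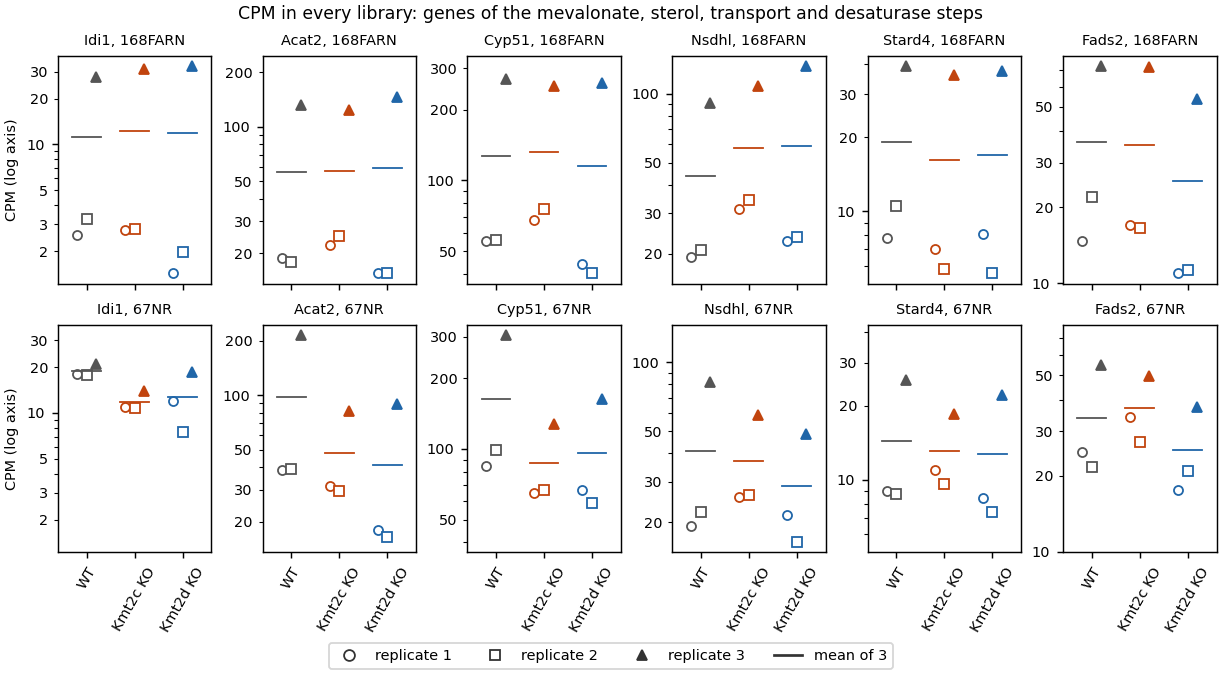
CPM (log axis) of *Idi1*, *Acat2*, *Cyp51*, *Nsdhl*, *Stard4* and *Fads2* in each of the 18 libraries by genotype, 168FARN in the upper row and 67NR in the lower. Open circles are replicate 1, open squares replicate 2, filled triangles replicate 3 and bars the mean of 3. In 168FARN every triangle of a gene lies above all its circles and squares.

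The other mevalonate genes were called higher as well. *Mvk*, mevalonate kinase, was at 4.29 to 7.32 CPM in replicates 1 and 2 of 168FARN and 24.8 to 26.9 in replicate 3 (log2 difference 2.24 ± 0.14). In 67NR it was at 4.14 to 8.07 CPM in replicates 1 and 2 and, in replicate 3, at 24.2 in WT against 12.9 and 13.1 in the *Kmt2c* and *Kmt2d* KO (1.46 ± 0.22). *Pmvk*, *Mvd* and *Fdps*, which carry phosphomevalonate on to farnesyl diphosphate, differed by 1.25 to 1.997 on the log2 scale in 168FARN and 0.77 to 1.43 in 67NR. All 6 mevalonate genes were called in 168FARN and 5 in 67NR.

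Of the 9 sterol genes 8 were called higher in 168FARN and all 9 in 67NR. *Cyp51*, the lanosterol demethylase, was at 55.4, 56.04 and 271 CPM in WT of 168FARN, 68.2, 75.5 and 252 in *Kmt2c* KO and 43.9, 40.2 and 261 in *Kmt2d* KO. The levels of 67NR were 84.2, 98.6 and 306 CPM in WT, 65.2, 67.2 and 128 in *Kmt2c* KO and 66.97, 58.6 and 164 in *Kmt2d* KO. Replicate 3 was the highest in each of the 6 groups, with log2 differences of 2.25 ± 0.12 and 1.37 ± 0.14 (edgeR adjusted p = 2.5e-08 and 3.1e-05).

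*Nsdhl*, a dehydrogenase of the demethylation steps, was at 19.4, 20.8 and 91.3 CPM in WT of 168FARN, 31.3, 34.3 and 108 in *Kmt2c* KO and 22.7, 23.7 and 131 in *Kmt2d* KO. Its levels in 67NR came to 19.3, 22.2 and 81.5 CPM in WT, 25.7, 26.4 and 58.8 in *Kmt2c* KO and 21.4, 16.4 and 48.6 in *Kmt2d* KO. Every replicate 3 lay above every replicate 1 and 2 of its line, and the log2 differences were 2.14 ± 0.12 and 1.52 ± 0.15. *Hsd17b7*, *Lss*, *Sqle*, *Dhcr7*, *Ebp* and *Fdft1* differed by 0.90 to 1.91 in 168FARN and 0.66 to 1.15 in 67NR. *Tm7sf2*, a sterol reductase, was the exception in 168FARN, at 2.61 to 4.98 CPM over the 9 libraries with a log2 difference of 0.07 ± 0.21, and it was higher in 67NR by 0.89 ± 0.26. Exons of *Fdft1* overlap another gene over 26.9% of their length and those of *Tm7sf2* over 15.3%, so their counts are uncertain.

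*Stard4*, a cytosolic cholesterol carrier, went with the sterol genes. It was at 7.79, 10.5 and 38.98 CPM in WT of 168FARN, 6.99, 5.83 and 35.9 in *Kmt2c* KO and 8.05, 5.58 and 37.3 in *Kmt2d* KO. The 67NR cells held 8.97, 8.71 and 25.6 CPM in WT, 10.99, 9.61 and 18.6 in *Kmt2c* KO and 8.44, 7.40 and 22.3 in *Kmt2d* KO. Every replicate 3 lay above the other replicates of its line (log2 differences 2.33 ± 0.14 and 1.30 ± 0.15).

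Of the 4 regulators only *Insig1* was called. It was at 102, 95.5 and 184 CPM in WT of 168FARN, 131, 131 and 181 in *Kmt2c* KO and 101, 73.5 and 167 in *Kmt2d* KO. For 67NR the values were 117, 129 and 387 CPM in WT, 90.7, 101 and 149 in *Kmt2c* KO and 83.2, 81.7 and 217 in *Kmt2d* KO. The differences were 0.77 ± 0.11 and 1.25 ± 0.15 on the log2 scale. *Srebf2* was at 92.5, 111 and 133 CPM in WT of 168FARN, 101, 109 and 141 in *Kmt2c* KO and 75.9, 83.4 and 149 in *Kmt2d* KO, and within 67NR at 87.3, 75.4 and 129 in WT, 108, 80.9 and 122 in *Kmt2c* KO and 76.3, 82.9 and 98.2 in *Kmt2d* KO. Its differences of 0.58 ± 0.10 and 0.45 ± 0.12 passed the adjusted p but not the fold threshold. *Srebf1* was at 22.6, 23.1 and 25.5 CPM in WT of 168FARN, 24.6, 27.2 and 26.1 in *Kmt2c* KO and 17.5, 22.3 and 26.9 in *Kmt2d* KO, and within 67NR at 32.1, 25.2 and 29.7 in WT, 27.8, 23.1 and 23.2 in *Kmt2c* KO and 16.3, 22.2 and 26.1 in *Kmt2d* KO. *Srebf1* (0.20 ± 0.11 and 0.13 ± 0.16) and *Scap* (0.33 ± 0.11 and 0.07 ± 0.12) were not called.

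Fatty acid genes were called more often in 168FARN, 6 of 9 (*Fads2*, *Acly*, *Elovl6*, *Fasn*, *Scd2* and *Fads1*), than in 67NR, 2 of 9 (*Elovl6* and *Fads2*), a difference that was not tested. *Fads2*, the delta-6 desaturase, was at 14.7, 22.005 and 72.2 CPM in WT of 168FARN, 16.97, 16.6 and 71.9 in *Kmt2c* KO and 10.95, 11.3 and 53.8 in *Kmt2d* KO. In WT of 67NR it was at 24.8, 21.6 and 55.1 CPM, in *Kmt2c* KO at 34.3, 27.2 and 49.7 and in *Kmt2d* KO at 17.5, 20.9 and 37.3. The log2 differences were 2.11 ± 0.11 and 0.97 ± 0.13. *Elovl6*, which lengthens palmitate, was at 24.3, 32.2 and 70.04 CPM in WT of 168FARN, 37.6, 37.4 and 92.8 in *Kmt2c* KO and 26.1, 26.6 and 68.7 in *Kmt2d* KO. It differed by 1.33 ± 0.09 there and by 1.22 ± 0.14 in 67NR. *Acaca*, *Scd1*, *Acsl3* and *Lpin1* were called in neither line.

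None of the LXR genes was called higher. *Mylip* was at 18.4, 20.8 and 5.58 CPM in WT of 168FARN, 14.96, 19.02 and 8.22 in *Kmt2c* KO and 17.4, 17.1 and 10.8 in *Kmt2d* KO. Across 67NR it was at 23.7, 20.7 and 7.65 CPM in WT, 12.8, 11.6 and 8.47 in *Kmt2c* KO and 14.6, 18.95 and 8.07 in *Kmt2d* KO. Replicate 3 was the lowest in all 6 groups, and *Mylip* fell by 1.16 ± 0.18 and 1.02 ± 0.20 on the log2 scale (edgeR adjusted p = 1.3e-04 and 0.0017). *Abcg1* fell by 0.75 ± 0.19 in 168FARN, a call that was lost without the WT libraries, and *Abca1* was called in neither line. Replicate 3 of *Abca1* was the lowest in WT of 168FARN and 67NR, at 22.6 and 0.833 CPM. It was the highest in each knockout group, at 49.7 in *Kmt2c* KO and 73.9 in *Kmt2d* KO of 168FARN. In 67NR these were at 32.9 and 24.4. Without *Kmt2d* KO replicate 3 of 67NR, the library with the low scaling factor, 17 members were higher there and 1 lower, a fit added after seeing the data. The share of all genes called in that fit was not worked out. Marker sums also differed by collection. The epithelial sum of 67NR was 419 to 2029.8 CPM in replicates 1 and 2 and 751 to 3238 in replicate 3. The sum of 5 mesenchymal markers was 9697 to 14388 CPM in replicates 1 and 2 of 168FARN and 7268 to 10015 in replicate 3, and 3961 to 5986 and 3172 to 5568 in 67NR. The part of these markers in the difference between collections was not tested.

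**Figure D2:**
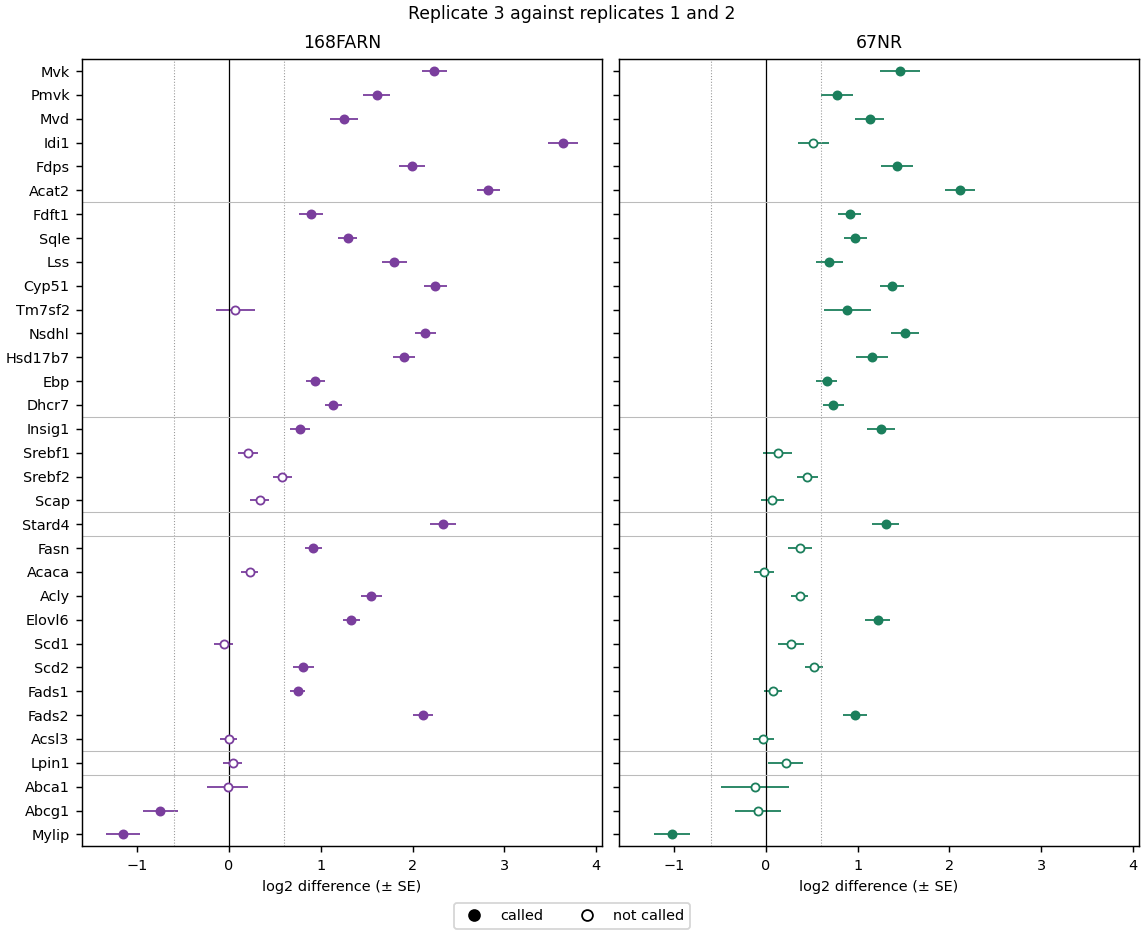
Log2 difference (x axis, ± SE) of the 33 members between replicate 3 and replicates 1 and 2, in 168FARN (left) and 67NR (right). Filled points are called, dotted lines mark 0.6 in either direction and grey lines separate role groups. *Idi1* lies at 3.64 in 168FARN and 0.51 in 67NR.

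The size of the step to replicate 3 was then set out by genotype. Summed over the members, replicate 3 of 168FARN held 4672 to 4776 CPM against 2115 to 2851 in the others. In 67NR the sums were 2545, 2596 and 4723 CPM in WT, 2099.9, 2007 and 2826 in *Kmt2c* KO and 1942, 1913 and 2911 in *Kmt2d* KO. As a share of the library's total count, without TMM scaling, they took 0.277%, 0.277% and 0.467% in WT, 0.228%, 0.211% and 0.285% in *Kmt2c* KO and 0.195%, 0.201% and 0.208% in *Kmt2d* KO, so the step in the sum of *Kmt2d* KO moves with the low scaling factor of its replicate 3. The median fold of the 15 mevalonate and sterol genes from replicates 1 and 2 to replicate 3 was 3.03 in WT of 67NR, 1.61 in *Kmt2c* KO and 1.89 in *Kmt2d* KO, and 3.55, 2.62 and 4.23 in the same genotypes of 168FARN.

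The difference in this step was tested after seeing the data, with 1 replicate 3 library per genotype. That library is assumed to vary as the other replicates do, and the spread came from replicates 1 and 2 alone. The calls on the step therefore do not measure how much replicate 3 collections vary. In *Kmt2c* KO of 67NR the step was smaller than in WT for 17 members and larger for 2, *Abca1* and *Mylip*, where 10.8% of all genes had a smaller and 9% a larger step. The members with a smaller step included most mevalonate and sterol genes, and *Insig1*, *Stard4*, *Elovl6*, *Scd1* and *Lpin1*. *Fdps* stood at −1.21 ± 0.20 and *Acat2* at −1.04 ± 0.20 on the log2 scale. In *Kmt2d* KO of 67NR it was smaller for 6 (*Hsd17b7*, *Scd1*, *Fdps*, *Lpin1*, *Lss* and *Pmvk*) and larger for *Abca1*, against 6.7% and 5.96% of genes, and this rests on the library with the low scaling factor.

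In 168FARN few members differed in the step. For *Kmt2c* KO it was smaller in 2 (*Fdps* and *Fdft1*) and larger in 2 (*Abca1* and *Abcg1*), against 7.23% and 4.01% of genes. For *Kmt2d* KO it was larger in 3 (*Abca1*, *Abcg1* and *Mylip*) and smaller in 0, against 1.03% and 1.58% of genes. *Abca1* was thus larger in step in both knockouts of both lines, by 1.31 ± 0.29 and 1.22 ± 0.29 in 168FARN and 2.57 ± 0.35 and 2.18 ± 0.36 in 67NR. The knockouts of a line share its WT libraries.

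**Figure D3:**
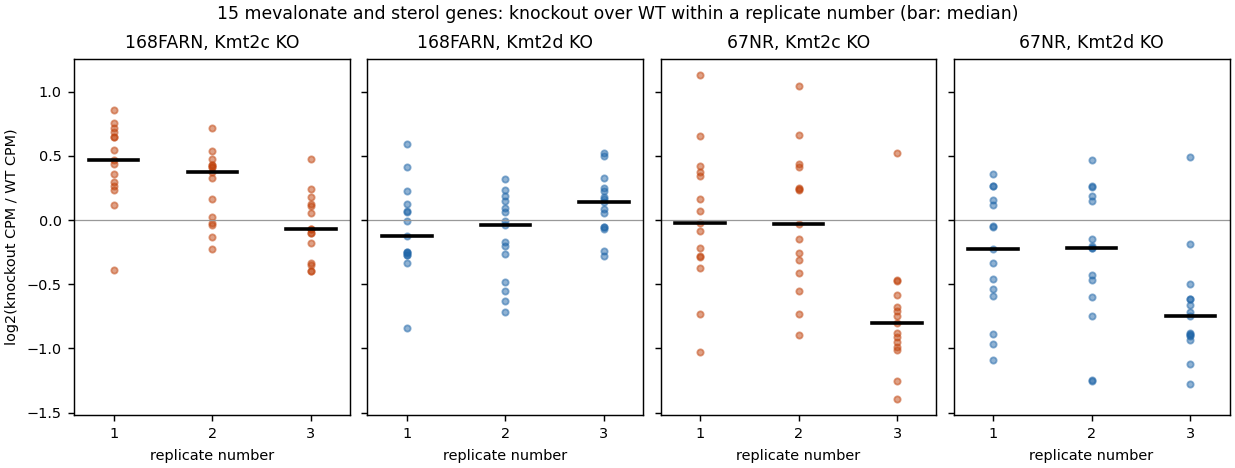
Log2 ratio of knockout to WT CPM (y axis) of the 15 mevalonate and sterol genes within replicate 1, 2 or 3 (x axis), with 1 panel for each line and knockout. Points are genes and black bars medians, which in 67NR are −0.03, −0.03 and −0.80 for *Kmt2c* KO and −0.23, −0.22 and −0.75 for *Kmt2d* KO.

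In the fit without a replicate block, the members called by genotype in 67NR were mostly those of sterol export and fatty acid synthesis. More mevalonate and sterol genes were called with the block, as given below. Compared with WT, *Kmt2c* KO had 4 members higher (*Abcg1*, *Abca1*, *Lpin1* and *Scd1*) and 6 lower (*Elovl6*, *Scd2*, *Ebp*, *Fasn*, *Acaca* and *Scap*). *Kmt2d* KO had the same 4 higher and 4 lower (*Scd2*, *Fasn*, *Scap* and *Acaca*). For *Kmt2c* KO this is 12.1% and 18.2% of members, beside 17.9% and 17.4% of all genes. For *Kmt2d* KO it is 12.1% in each direction, beside 13.9% and 11.6%. The shares of members lie near those of all genes in this fit without a replicate block. The median log2 fold change of the 33 was −0.43 and −0.44, beside −0.02 and −0.02 over all genes.

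*Abcg1* and *Abca1*, which export cholesterol to lipoproteins, changed most. *Abcg1* (mm9 chr17:31194643-31252722, plus strand) was at 0.544, 0.201 and 0.203 CPM in WT of 67NR, 9.82, 8.80 and 9.68 in *Kmt2c* KO and 5.86, 6.19 and 6.38 in *Kmt2d* KO. All knockout libraries lay above all WT libraries, with log2 fold changes of 4.85 ± 0.40 and 4.23 ± 0.40 (edgeR adjusted p = 3.0e-05 and 9.8e-05). The WT libraries held only 47, 14 and 9 reads of *Abcg1*, so the size of its fold changes is uncertain, also in the comparisons between lines below. The share of all genes whose groups do not overlap was not worked out, here or below. *Abca1* (mm9 chr4:53043659-53172767, minus strand), whose promoter is printed above, was at 2.73, 3.91 and 0.833 CPM in WT, 20.8, 23.1 and 32.9 in *Kmt2c* KO and 22.5, 20.3 and 24.4 in *Kmt2d* KO. These groups did not overlap WT either, with log2 fold changes of 3.35 ± 0.48 and 3.16 ± 0.47 (edgeR adjusted p = 6.8e-04 and 0.0015). *Mylip*, the other LXR gene, was not called, at −0.67 ± 0.43 and −0.33 ± 0.43.

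The stearoyl-CoA desaturases *Scd1* and *Scd2*, which make oleate, went in opposite directions. *Scd1* was at 64.9, 68.2 and 114 CPM in WT of 67NR, 168, 165 and 163 in *Kmt2c* KO and 142, 134 and 141 in *Kmt2d* KO, with log2 fold changes of 1.01 ± 0.21 and 0.76 ± 0.21 (edgeR adjusted p = 0.0055 and 0.03). *Scd2* was at 837, 884 and 1216 CPM in WT, 411, 412 and 631 in *Kmt2c* KO and 449.9, 453 and 617 in *Kmt2d* KO, with log2 fold changes of −1.01 ± 0.24 and −0.95 ± 0.24 (edgeR adjusted p = 0.01 and 0.021). No knockout library of either gene overlapped WT. Per kilobase of exon, *Scd2* mRNA in WT of 67NR was at 179 ± 37.9 CPM per kb (SD, n = 3) and *Scd1* at 17.01 ± 5.66, so *Scd2* was the more abundant. The genes are similar neighbours on chr19, and how shared reads were counted is not given in the sources used here.

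*Fasn* and *Acaca*, the synthase and the carboxylase of palmitate, were lower in both knockouts. *Fasn* was at 199, 160.4 and 249.6 CPM in WT of 67NR, 133, 101 and 123 in *Kmt2c* KO and 91.4, 111 and 147 in *Kmt2d* KO, with log2 fold changes of −0.77 ± 0.23 and −0.80 ± 0.23. *Acaca* was at 68.2, 65.7 and 63.3 CPM in WT, 45.7, 36.9 and 42.6 in *Kmt2c* KO and 41.6, 45.1 and 42.3 in *Kmt2d* KO, with log2 fold changes of −0.65 ± 0.13 and −0.61 ± 0.13. WT libraries of both genes lay above all knockout libraries. The *Acaca* calls lie at the fold threshold: that of *Kmt2c* KO was lost without its replicate 2, and that of *Kmt2d* KO without WT replicate 1 or knockout replicate 1 or 3, or with only the 6 libraries compared. *Fasn* was lost in *Kmt2c* KO without WT replicate 3 or knockout replicate 2, and in *Kmt2d* KO without knockout replicate 1 or 2.

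*Elovl6* was at 74.4, 82.3 and 246 CPM in WT of 67NR, 43.9, 42.3 and 76.5 in *Kmt2c* KO and 50.2, 55.4 and 115 in *Kmt2d* KO. WT and *Kmt2c* KO overlap, and its log2 fold change there, −1.31 ± 0.51, was called in 9 of 14 alternatives, and lost without WT replicate 3, without knockout replicate 1 or 2, without the filter on low counts and at an adjusted p below 0.05. *Ebp*, a sterol isomerase, was at 23.8, 22.9 and 33.7 CPM in WT and 11.7, 12.3 and 20.1 in *Kmt2c* KO, a log2 fold change of −0.87 ± 0.30 lost without any of the same 3 libraries. *Lpin1*, which makes diacylglycerol, was at 12.4, 12.97 and 23.6 CPM in WT, 40.01, 36.9 and 30.4 in *Kmt2c* KO and 26.8, 25.6 and 26.3 in *Kmt2d* KO. No knockout library of *Lpin1* overlapped WT, with log2 fold changes of 1.13 ± 0.25 and 0.68 ± 0.25 (edgeR adjusted p = 0.0075 and 0.083), and the call in *Kmt2d* KO was held in 7 of 14 alternatives and lost when any of the 6 libraries but WT replicate 3 was left out.

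*Scap*, the sterol sensor that escorts SREBP, was at 35.9, 30.4 and 30.1 CPM in WT of 67NR, 23.4, 18.4 and 21.5 in *Kmt2c* KO and 18.1, 18.7 and 22.5 in *Kmt2d* KO. All WT values exceeded all knockout values, with log2 fold changes of −0.61 ± 0.17 and −0.70 ± 0.17 (edgeR adjusted p = 0.019 and 0.015). The first lies at the fold threshold and was called in 9 of 14 alternatives: it was lost with DESeq2's size factors, in the DESeq2 test, with only the 6 libraries compared, and without WT replicate 1 or knockout replicate 2. Of its exon bases 18.9% overlap a gene on the other strand, which makes the counts uncertain. *Srebf1* (−0.23 ± 0.20 and −0.43 ± 0.20), *Srebf2* (0.10 ± 0.23 and −0.18 ± 0.23) and *Insig1* (−0.89 ± 0.53 and −0.73 ± 0.53) were not called.

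**Figure D4:**
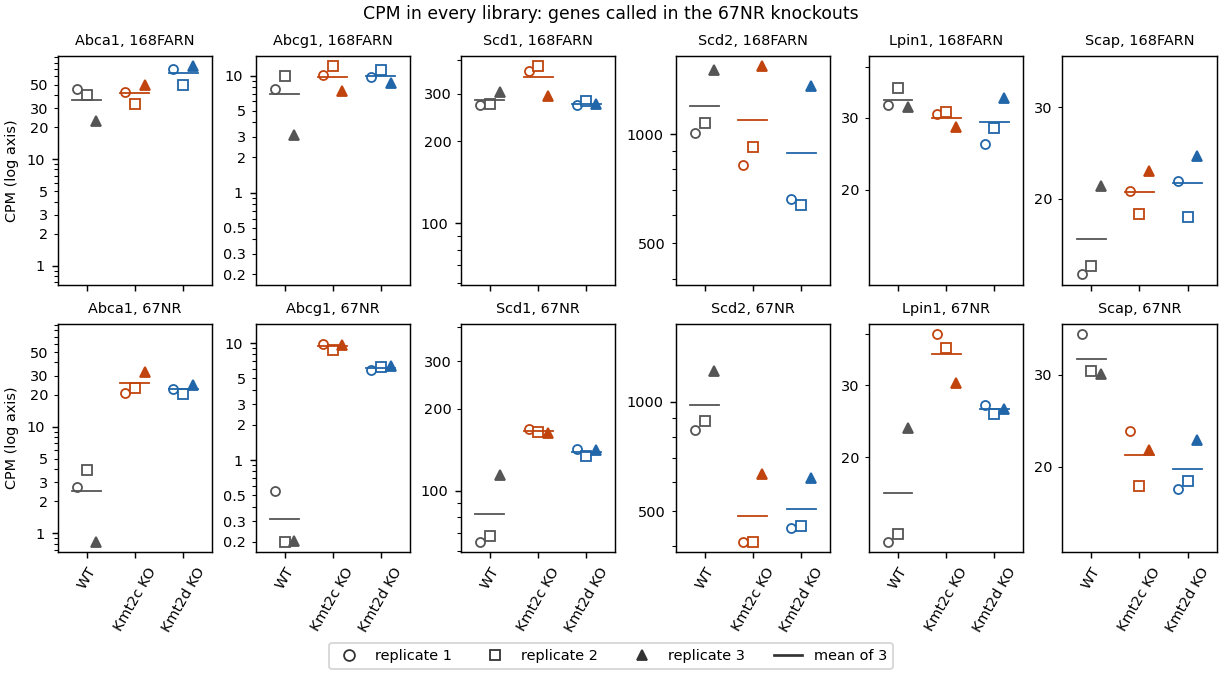
CPM (log axis) of *Abca1*, *Abcg1*, *Scd1*, *Scd2*, *Lpin1* and *Scap* in each of the 18 libraries by genotype, 168FARN in the upper row and 67NR in the lower. Open circles are replicate 1, open squares replicate 2, filled triangles replicate 3 and bars the mean of 3. In 67NR no knockout library of these genes overlaps WT. The genes were chosen from those called in 67NR, and the share of all genes without overlap was not worked out.

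With the replicate number as a block, more synthesis genes were called lower in 67NR. In *Kmt2c* KO 5 members were then higher and 10 lower, which is 15.2% and 30.3% of members beside 21.3% and 19.9% of all genes. In *Kmt2d* KO 4 were higher and 12 lower, 12.1% and 36.4% of members beside 17.4% and 15.4%. *Idi1*, *Acat2*, *Cyp51* and *Insig1* were added as lower in both, for example *Acat2* at −0.68 ± 0.20 and −1.21 ± 0.20 and *Cyp51* at −0.73 ± 0.16 and −0.67 ± 0.16. *Dhcr7* was added as higher in *Kmt2c* KO (0.62 ± 0.13), and *Fdps*, *Fdft1*, *Ebp* and *Elovl6* as lower in *Kmt2d* KO. Without WT replicate 3 and without the block, log2 fold changes turned positive for *Acat2* in both knockouts (0.29 and 0.080), and in *Kmt2d* KO those of *Fdps*, *Cyp51* and *Insig1* stood at 0.22, 0.076 and 0.049, none called. Within replicates 1 and 2, the median log2 ratio of the 15 mevalonate and sterol genes to WT of the same number was −0.03 and −0.03 in *Kmt2c* KO and −0.23 and −0.22 in *Kmt2d* KO. Within replicate 3 it was −0.80 and −0.75, with 14 of the 15 below WT in each. Each of these ratios sets 1 library over 1, and both knockouts share WT replicate 3. That of *Kmt2d* KO rests on the library with the low scaling factor. The same ratios were not set out over all genes.

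Markers of cell state also differed in the 67NR knockouts. Of the 6 epithelial markers 5 were lower in *Kmt2c* KO (*Cdh1*, *Epcam*, *Krt8*, *Krt14* and *Krt18*) and 3 in *Kmt2d* KO (*Cdh1*, *Epcam* and *Krt18*), with sums of 1950.02 to 3238 CPM in WT, 419 to 751 in *Kmt2c* KO and 720.3 to 1501 in *Kmt2d* KO, and *Krt5* was at 0 throughout. Of 5 mesenchymal markers 4 were higher in each knockout (*Zeb1*, *Cdh2*, *Twist1* and *Vim*) and *Fn1* was lower, with sums of 3172 to 5986, 4233 to 5539 and 3961 to 5568 CPM. Of 3 adipocyte markers *Fabp4* and *Plin1* were higher in both, at sums of 0.258 to 1.08, 8.33 to 12.1 and 3.43 to 5.59 CPM, and *Adipoq* was at 0 in the knockouts. Their part in the lipid genes was not tested.

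**Figure D5:**
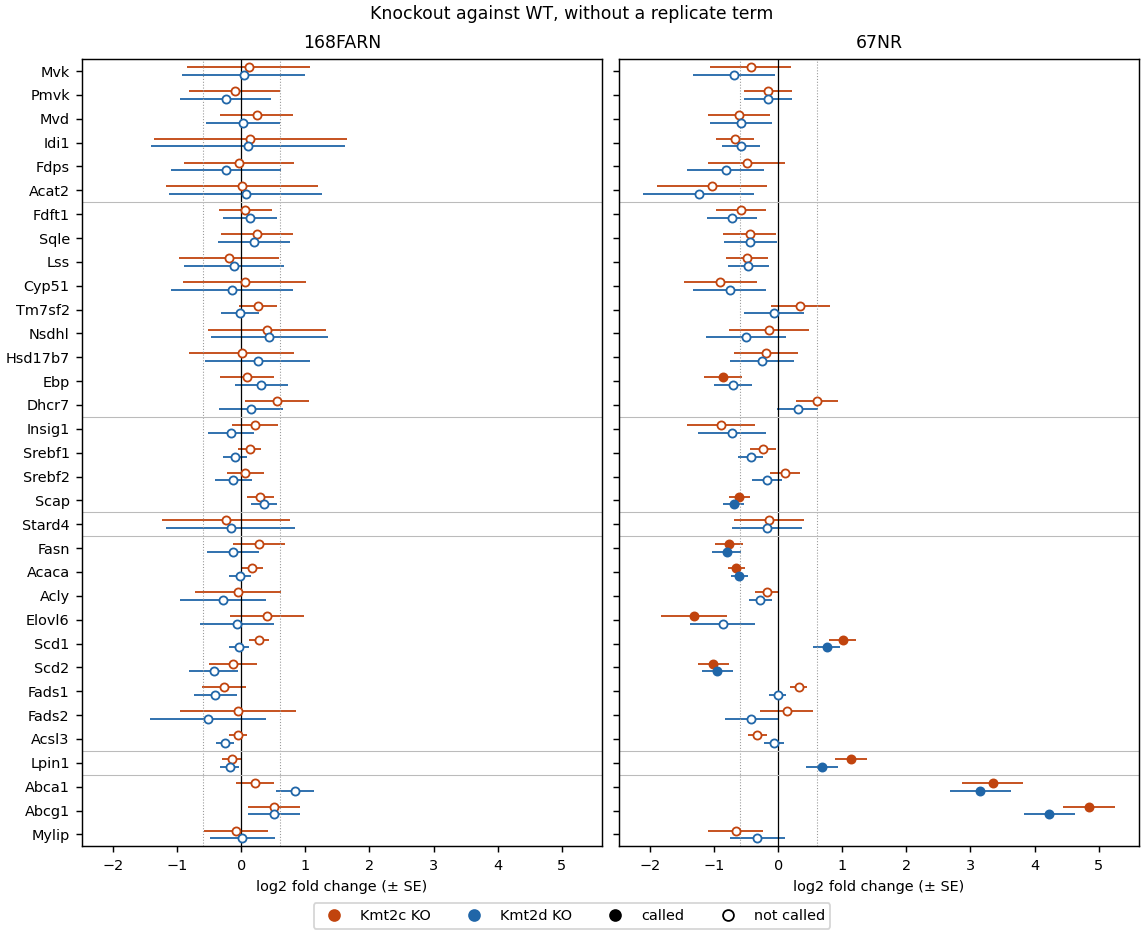
Log2 fold change (x axis, ± SE) of the 33 members in *Kmt2c* KO (orange) and *Kmt2d* KO (blue) compared with WT, without a replicate term, in 168FARN (left) and 67NR (right). Filled points are called, dotted lines mark 0.6 in either direction and grey lines separate role groups. No point is filled in 168FARN.

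In 168FARN edgeR called 0 members in either knockout, with or without the block, and DESeq2 called 0 in each. Of all genes 0.196% were higher and 0.163% lower for *Kmt2c* KO and 0.147% and 0.139% for *Kmt2d* KO. With the block the shares were 3.66% and 3.57%, and 2.73% and 3.17%. At an unadjusted p below 0.05 there were 0 and 1 members without the block, beside 725 and 647 of 12253 genes. With it there were 10 and 10 members, beside 3292 and 2784 genes. With the block some members missed the call by little. *Dhcr7* in *Kmt2c* KO (0.59 ± 0.11, edgeR adjusted p = 0.0072) and *Fads2* in *Kmt2d* KO (−0.598 ± 0.14, adjusted p = 0.021) were just under the fold threshold, and *Abca1* in *Kmt2d* KO (0.83 ± 0.26, adjusted p = 0.101) just over the threshold on p. Without the block the largest fold change was that of *Abca1* in *Kmt2d* KO, 0.84 ± 0.30 (edgeR adjusted p = 0.69), from 45.2, 40.3 and 22.6 CPM in WT to 70.1, 49.03 and 73.9, groups that do not overlap. In *Kmt2c* KO *Abca1* was at 42.96, 32.9 and 49.7 CPM. *Abcg1* was at 7.66, 9.89 and 3.11 CPM in WT, 10.05, 11.9 and 7.34 in *Kmt2c* KO and 9.78, 11.1 and 8.55 in *Kmt2d* KO. *Scap* was at 14.4, 14.9 and 21.1 CPM in WT, 20.7, 18.7 and 22.6 in *Kmt2c* KO and 21.7, 18.5 and 24.2 in *Kmt2d* KO. The SE of *Idi1* in *Kmt2c* KO was 1.51 without the block and 0.20 with it. In replicates 1 and 2 alone *Dhcr7* and *Nsdhl* were called higher in *Kmt2c* KO and *Acly*, *Fads2*, *Idi1* and *Scd2* lower in *Kmt2d* KO, in fits that called 7.98% and 5.62% of all genes in these directions.

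Between *Kmt2c* KO and *Kmt2d* KO edgeR called 0 members in either line. Of all genes 0.131% were higher in *Kmt2c* KO and 0.122% lower in 168FARN, and 0.132% and 1.28% in 67NR. At an unadjusted p below 0.05 there were 0 members in 168FARN, beside 616 of 12253 genes, and 1 in 67NR. With the block 0 members were called again, beside 2.89% and 2.44% of all genes called in 168FARN and 1.59% and 5.7% in 67NR. At an unadjusted p below 0.05 that fit had 11 members in 168FARN, beside 2699 of 12253 genes. In 67NR it had 7 members, and neither of these 67NR counts is set beside all genes here. The largest differences without the block were those of *Abca1* in 168FARN, −0.62 ± 0.30, and of *Abcg1* in 67NR, 0.62 ± 0.34 on the log2 scale, neither called.

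The knockout effects were compared between the lines in a fit of all 18 libraries, where line and table cannot be told apart. On the log2 scale the *Kmt2c* KO effect was higher in 67NR for *Abcg1* (4.27 ± 0.58), *Abca1* (3.05 ± 0.58) and *Lpin1* (1.19 ± 0.30) and lower for *Scap* (−0.99 ± 0.27) and *Acaca* (−0.91 ± 0.21), beside 8.49% and 7.55% of 13882 genes. The *Kmt2d* KO effect was higher for *Abcg1* (3.67 ± 0.58) and *Abca1* (2.26 ± 0.57) and lower for *Scap* (−1.11 ± 0.27) and *Acaca* (−0.65 ± 0.21), beside 6.68% and 3.92%. The last of these was not called without *Kmt2d* KO replicate 3 of 67NR. The edgeR adjusted p of these calls ran from 1.3e-04 to 0.081. With the replicate block 4 members were higher and 13 lower for *Kmt2c* KO, beside 17.4% and 17.2% of genes, and 4 and 8 for *Kmt2d* KO, beside 15.4% and 13%. The 8 lower in the latter were *Acat2*, *Fdft1*, *Nsdhl*, *Ebp*, *Scap*, *Fasn*, *Acaca* and *Elovl6*.

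The WT cells of the lines differed in several of the same genes. In WT of 67NR 4 members were higher than in WT of 168FARN on the log2 scale, *Elovl6* (1.67 ± 0.59), *Ebp* (0.98 ± 0.38), *Scap* (0.93 ± 0.19) and *Fasn* (0.87 ± 0.34), and 5 were lower, *Abcg1* (−4.41 ± 0.46), *Abca1* (−3.85 ± 0.45), *Scd1* (−1.79 ± 0.19), *Lpin1* (−1.03 ± 0.22) and *Fads1* (−0.91 ± 0.26). Among all genes 22.3% were higher and 16.9% lower. *Fads1*, the delta-5 desaturase, was at 94.8, 100.1 and 167 CPM in WT of 168FARN and 59.5, 64.7 and 69.3 in WT of 67NR. Per kilobase of exon, *Abca1* was at 3.48 ± 1.15 CPM per kb (SD, n = 3) in WT of 168FARN and 0.241 ± 0.150 in WT of 67NR. The WT libraries of 67NR also enter its knockout comparisons. None of the 6 mevalonate genes was called between the WT cells in this fit, which has no replicate block. In replicates 1 and 2 *Idi1* was at 2.55 and 3.25 CPM in WT of 168FARN and 18.1 and 17.9 in WT of 67NR. In replicate 3 it was at 27.7 and 20.9. With replicates 1 and 2 alone 9 members were higher and 6 lower in WT of 67NR, beside 28.6% and 25.6% of all genes.

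Of other genes of these pathways 37 had a row. In replicate 3 of 168FARN 14 of 36 tested were higher and 6 lower, beside 22.5% and 25.7% of all genes, among the higher the sterol desaturase *Sc5d* (1.49 ± 0.09) and the sterol reductase *Lbr* (1.78 ± 0.11) on the log2 scale. In replicate 3 of 67NR 6 of 35 were higher and 7 lower, beside 15.1% and 13%, with the smallest p in *Fads3* (−1.33 ± 0.15). In 67NR 6 of 35 were higher and 3 lower for *Kmt2c* KO, beside 17.9% and 17.4% of all genes, and 3 and 2 for *Kmt2d* KO, beside 13.9% and 11.6%, with the smallest p in *Slc25a1*, the mitochondrial citrate carrier that feeds acetyl-CoA to the cytosol, at −1.90 ± 0.22 and −1.44 ± 0.21. In the knockouts of 168FARN 0 were called without the block. The median log2 difference of the genes tested was 0.33 and −0.03 in replicate 3 of 168FARN and 67NR and −0.19 and −0.04 in the 67NR knockouts.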

How the data were processed

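Strand-specific libraries of polyadenylated RNA were made from 18 cultures and sequenced. The authors ran VIPER, which aligns with STAR (build mm9), and deposited raw counts per gene symbol, 1 file per line. The STAR version, annotation and strand setting of the counting are not given in the sources used here. Columns went to samples by name, with 0 unmatched. In the 67NR file, 4 rows carry date-like symbols that occur more than once, none of them a member. The members, the gene and marker lists and the singling out of replicate 3 were chosen with earlier results of these data known.

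Counts were tested in R 4.3.3 with edgeR 4.0.16 (TMM, filterByExpr, robust quasi-likelihood fit) and limma 3.58.1 on the 9 libraries of a line with genotype as the factor, or on all 18 for comparisons between lines. Replicate 3 was tested in a fit with genotype and replicate number. P-values were adjusted by Benjamini-Hochberg over all genes tested, with the call rule given in the report. CPM are TMM-scaled within a line, and SE is the log2 difference over the square root of F. DESeq2 1.42.0, other filters, the replicate block and leaving out libraries were alternatives. The tests were run on simulated counts, in which libraries varied independently and few genes had a step in replicate 3. These settings differ from the data, so that run does not show how the tests behave here. Library values are given for the regulators, the LXR genes and, of the members called, up to the 6 with the smallest p in each direction of a comparison, and others by range. Positions are from GENCODE vM1 (mm9) and promoters from RefSeq (GRCm38.p6).

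Libraries with the same replicate number deviated from their group means together, with correlations of 0.751 to 0.930 over 9 pairs in 168FARN and 0.490 to 0.834 over 9 in 67NR, against −0.896 to 0.824 and −0.777 to 0.734 over pairs with different numbers. Every pair with the same number passed 0.1, and the replicate block was used on that ground. Replicates 1 and 2 with different numbers passed it too. For example, WT 1 and *Kmt2c* KO 2 of 168FARN stood at 0.806, and WT 2 and *Kmt2d* KO 1 of 67NR at 0.702. The check thus sets replicate 3 apart but cannot tell the pairing of replicates 1 and 2.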

Additional observations from a re-analysis of the deposited data

Results flagged for a closer look

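The knockout effects on 5 members differed between the lines in the interaction test. For *Kmt2c* KO the log2 difference (67NR minus 168FARN) was 4.27 for *Abcg1*, 3.05 for *Abca1*, 1.19 for *Lpin1*, −0.99 for *Scap* and −0.91 for *Acaca*. For *Kmt2d* KO it was 3.67 for *Abcg1*, 2.26 for *Abca1*, −1.11 for *Scap* and −0.65 for *Acaca*. Line and table cannot be told apart. The step to replicate 3 differed between a knockout and WT for 4 members in *Kmt2c* KO and 3 in *Kmt2d* KO of 168FARN, and for 19 and 7 in 67NR, a test added after seeing the data that has 1 library per genotype at replicate 3.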

How the results depend on the processing

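Of 865 values of single genes under the alternatives, 763 kept direction and side of the threshold, 36 fell under it, 61 newly passed it and 5 changed sign. These 5 were not called with all libraries and turned positive, still not called, without WT replicate 3 of 67NR. Leaving out 1 library at a time, from knockout replicate 3 (lowest) to WT replicate 3 (highest), *Acat2* ran from −1.67 to 0.29 in *Kmt2c* KO of 67NR and, in its *Kmt2d* KO, *Acat2* from −2.47 to 0.080, *Fdps* from −1.36 to 0.22, *Cyp51* from −1.35 to 0.076 and *Insig1* from −1.33 to 0.049. *Abcg1*, *Abca1*, *Scd1* and *Scd2* kept their calls in all 14 alternatives in both knockouts of 67NR, with adjusted p up to 0.096 (*Scd1* in *Kmt2d* KO). With the replicate block, which pairs libraries of the same number, the members called lower went from 6 to 10 in *Kmt2c* KO and from 4 to 12 in *Kmt2d* KO of 67NR, those with a lower effect in 67NR than in 168FARN from 2 to 13 for *Kmt2c* KO and from 2 to 8 for *Kmt2d* KO, and those with a higher effect of *Kmt2d* KO from 2 to 4. In replicates 1 and 2 alone, 2 members were higher in *Kmt2c* KO and 4 lower in *Kmt2d* KO of 168FARN (0 in each with all replicates), beside 7.98% and 5.62% of all genes, 7 lower in *Kmt2d* KO of 67NR (beside 16.8%), 5 higher and 13 lower in the line comparison for *Kmt2c* KO (beside 19.2% and 18.7%), 4 and 5 for *Kmt2d* KO (beside 18% and 14.5%), and 9 higher in WT of 67NR than of 168FARN (4 with all, beside 28.6%). Without the filter on low counts, the line comparison for *Kmt2d* KO held 1 lower, as it did without *Kmt2d* KO replicate 3 of 67NR (added after seeing the data). Without the WT libraries, 1 member was lower in replicate 3 of 168FARN. Leaving out 1 library at a time, members lower in *Kmt2c* KO of 67NR numbered 1 (without its replicate 2) to 6, with 4 without its replicate 1 or WT replicate 3, and in *Kmt2d* KO 2 (without its replicate 1) to 6 (without its replicate 3). In 168FARN they numbered 0 throughout. For the fits without the filter, without the WT libraries or without 1 library, the share of all genes called was not worked out. The cause of the changes between alternatives was not tested.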
